A study of Mus musculus with 4 samples.

Results

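Acetyl groups on histone tails are removed by deacetylases (erasers), placed by acetyltransferases (writers) and bound by proteins with a bromodomain (readers). The erasers comprise the zinc-dependent histone deacetylases, the HDACs, and the NAD-dependent sirtuins, several of which act outside the nucleus on proteins other than histones. HDAC1 and HDAC2 are closely related class I enzymes that share the SIN3, NuRD and CoREST corepressor complexes, and in many tissues each can stand in for the other. The 34 genes described here are 18 erasers, 10 writers and 6 readers, chosen by symbol from the 22809 genes of the deposited table. All 34 were found in it, and 33 had a mean of at least 1 TPM over the libraries and were tested. The exception was Hdac9.

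Poly(A) RNA was sequenced from freshly isolated mouse glomeruli, the filtering units of the kidney, at 3 weeks of age. The 2 knockout libraries are labelled HDAC KO, a podocyte-specific knockout of Hdac1 and Hdac2 by the study's title, and the 2 control libraries are labelled wild type and untreated. Each library pooled 2 mice, and the study describes 2 independent experiments. Neither the strain nor the promoter that drives the podocyte deletion is named in the labels, and whether the controls carry floxed alleles is not stated. Levels are TPM, reads divided by gene length and scaled to 1000000 in each library, so levels of different genes can be compared. The whole reads behind them numbered 17476365 and 20943138 in knockout replicates 1 and 2, and 15808117 and 12876939 in control replicates 1 and 2. The comparison asks whether transcripts of the remaining acetylation machinery differ where both enzymes are labelled as deleted in podocytes.

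The labelled tissue was checked against marker lists. All 22 podocyte markers had reads in every library. Summed over the list, podocyte markers reached 831 and 1152 TPM in knockout and 1417 and 1722 TPM in control libraries. Of this sum Col4a4 alone gave 221 and 248 TPM in knockout and 426 and 285 TPM in control libraries. Of the 22, 6 had both knockout values below both controls and 1 (Cd2ap) had both above, beside 14.3% and 36.7% of all genes tested. The other 15 overlapped. The 14 proximal tubule markers, also all detected, summed to 5518 and 6649 TPM in knockout libraries, against 44078 and 10973 TPM in controls, of which the tubular gene Kap alone gave 31062 TPM in control replicate 1. Of the 13 immune markers, 12 were above in knockout libraries, and the list summed to 1778 and 1960 TPM in knockout against 137 and 419 TPM in control libraries. The T cell gene Cd3e was listed at 0 in control replicate 1. All 12 proliferation markers were above, with sums of 171 and 191 TPM in knockout against 67.5 and 104 TPM in control libraries, as were all 7 parietal epithelial markers, with 776 and 573 TPM against 170 and 218 TPM. In whole glomeruli, fewer cells of a type and less RNA per cell cannot be told apart. The part of these shifts in the values below was not tested.

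**Figure D1:**
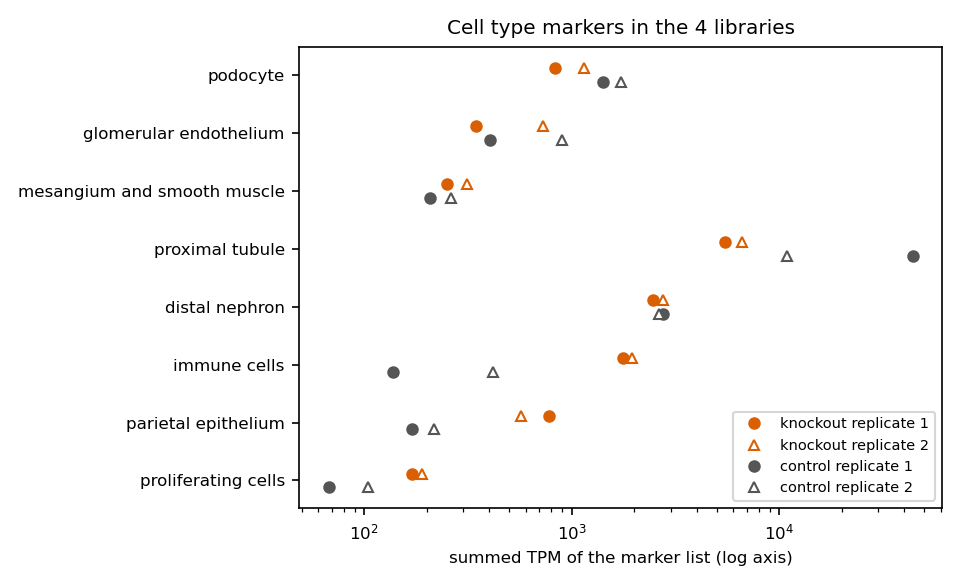
Summed TPM (log axis) of 8 lists of cell type markers in each library, knockout libraries in orange and control libraries in grey. The immune list lies at 1778 and 1960 TPM in knockout and 137 and 419 TPM in control libraries, and the proximal tubule list reaches 44078 TPM in control replicate 1.

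No member passed the adjusted threshold of 0.05 by limma in either direction, where 0.00537% of the 18612 genes tested did. That share is 1 gene, the snRNA gene Gm22513, at 5.96 and 3.65 TPM in knockout and 652 and 752 TPM in control libraries (log2 fold change -6.95 with an SE of 0.24, limma's adjusted p = 0.00688). At an unadjusted p under 0.05, 3 members were higher in knockout libraries (Hdac6, Sirt6 and Brd2) and 0 lower, beside 13.4% and 4.46% of all genes tested. By voom on the recovered reads 0 members were called after adjustment, and at the same unadjusted level 4 members were higher and 1 (Sirt3) lower. With median-ratio scaling Sirt6 alone was higher and Sirt3 alone lower at that level, among 1775 genes higher and 1338 lower over the table, so Hdac6 and Brd2 no longer passed it. In TPM recomputed without mitochondrially encoded genes no member passed it. What follows therefore gives levels and intervals, and no member is said to have changed. Each log2 fold change is a difference of mean log2(TPM + 1), knockout minus control, and for low genes it comes out too small.

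The scale of reference matters for these modest differences. The median log2 fold change of all genes tested was 0.17 in TPM as deposited and -0.030 after median-ratio scaling, which sets the typical gene equal between libraries. The shift of 0.20 is as large as the median of the members themselves, which was 0.21 as deposited, 0.044 relative to all genes, and -0.0067 after median-ratio scaling. Of the 33 members tested, 16 had both knockout values above both control values in TPM and 1 had both below. Over all genes tested these shares were 36.7% above and 14.3% below. After median-ratio scaling 8 members were above and 11 below, where 24.1% of all genes were above and 25.5% below.

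The promoter sequences of a targeted gene and of the member with the widest gap between the groups in TPM as deposited are shown to place both in the genome. They are the 250 bases upstream of the RefSeq start sites in GRCm38.p6, read on the gene's strand. Capitals mark the GC box GGGCGG and the CCAAT box on either strand.
Hdac2, chr10:36974294-36974543, plus strand: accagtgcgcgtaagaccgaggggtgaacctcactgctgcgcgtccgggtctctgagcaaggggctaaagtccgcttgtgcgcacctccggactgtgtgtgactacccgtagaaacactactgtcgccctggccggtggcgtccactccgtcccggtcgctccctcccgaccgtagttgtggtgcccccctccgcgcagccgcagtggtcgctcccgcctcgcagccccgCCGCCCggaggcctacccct
Hdac6, chrX:7947890-7948139, minus strand: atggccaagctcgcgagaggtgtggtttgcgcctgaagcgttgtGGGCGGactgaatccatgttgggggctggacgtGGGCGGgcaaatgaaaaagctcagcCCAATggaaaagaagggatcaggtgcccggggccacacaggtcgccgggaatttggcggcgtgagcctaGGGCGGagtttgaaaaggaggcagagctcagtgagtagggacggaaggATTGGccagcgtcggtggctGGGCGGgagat
The Hdac2 window, 68.8% G and C, held 1 GC box and 0 CCAAT boxes, and the Hdac6 window, 61.2% G and C, held 4 and 2. RefSeq windows were matched for 29 of the 34 members, some with several start sites. A GC box lay in 26 of their 42 windows and in 32.7% of all 32841 windows of the table, and a CCAAT box in 14 of 42 and in 33.9% of all. The motif TTTNNCGC, a pattern bound by E2F factors, was in 5 of the 42 windows and 4.28% of all. Each motif was searched on both strands, and a window with overlapping matches was counted once. These matches describe letters in a window and say nothing of binding.

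Among the class I enzymes, neither targeted transcript had both knockout values below both controls in TPM as deposited. Hdac1 (chr4:129516104-129542713, minus strand, GRCm38) was at 22.9 and 22.5 TPM in knockout libraries, against 19.3 and 18.6 TPM in control libraries, from 566 and 647 reads in knockout and 445 and 342 reads in control libraries. Both knockout values lay above both controls, with a log2 fold change of 0.25 (95% interval -0.18 to 0.68, adjusted p = 0.512 by limma). Relative to all genes it was 0.083, and after median-ratio scaling it was 0.024 with overlapping groups. Hdac2 (chr10:36974544-37001889, plus strand) was at 23.5 and 20.9 TPM in knockout libraries and 20.2 and 24.1 TPM in control libraries. The groups overlapped, with a log2 fold change of 0.0061 (95% interval -0.47 to 0.48, adjusted p = 0.991), and the sign turned negative with median-ratio scaling (-0.22) and without control replicate 1 (-0.12). After median-ratio scaling both Hdac2 values of the knockout libraries lay below both controls. Hdac1 and Hdac2 together summed to 46.5 and 43.4 TPM in knockout and 39.5 and 42.7 TPM in control libraries. Glomeruli hold other cells that keep both genes, and a gene's TPM counts reads over all its exons, so a transcript that lacks only some of them is still counted. These values therefore do not serve as a check of the labels.

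Hdac3, the catalytic subunit of the NCoR and SMRT corepressor complexes, was at 23.7 and 25.2 TPM in knockout and 20.2 and 18.8 TPM in control libraries. Both knockout values were above both controls by a small margin, with a log2 fold change of 0.31 (95% interval -0.12 to 0.74, adjusted p = 0.417 by limma), or 0.14 relative to all genes. After median-ratio scaling the groups of Hdac3 overlapped. Hdac8, the class I enzyme that acts on the cohesin subunit SMC3, was the lowest of the class at 5.98 and 6.77 TPM in knockout and 5.25 and 5.60 TPM in control libraries. Class I transcripts summed to 76.2 and 75.3 TPM in knockout and 65.0 and 67.1 TPM in control libraries. Within this sum Hdac3 held 31.2% and 33.5% in knockout and 31.1% and 28.0% in control libraries, and Hdac2 held 30.9% and 27.7% in knockout and 31.1% and 35.9% in control libraries. Both knockout shares lay above both control shares for Hdac3 and below them for Hdac2, but the nearest values of the groups were 31.2% and 31.1% for Hdac3, and 30.9% and 31.1% for Hdac2.

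The class IIa enzymes bind MEF2 transcription factors, shuttle between nucleus and cytoplasm and have weak catalytic activity of their own. All 4 had both knockout values above both controls, as did 36.7% of all genes tested. Hdac7, known for its role in endothelial cells, was the highest, at 32.1 and 40.1 TPM in knockout libraries against 17.1 and 31.3 TPM in control libraries. Its log2 fold change was 0.61 (95% interval -0.18 to 1.40, adjusted p = 0.387 by limma), and the gap between the controls was wider than that between the knockout libraries. Without control replicate 2 the log2 fold change of Hdac7 was 1.03, beside a median of 0.32 over all genes. Without control replicate 1 it was 0.19, beside 0.038 over all genes. Each of these fits holds 1 control library. The endothelial marker list summed to 345 and 727 TPM in knockout and 404 and 895 TPM in control libraries. In TPM as deposited 0 of its 12 members separated the groups, and after median-ratio scaling 2 were below and 0 above. The part of endothelial RNA in the Hdac7 value was not tested.

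Hdac5 was at 19.8 and 25.5 TPM in knockout and 16.3 and 17.9 TPM in control libraries, and Hdac4 at 8.02 and 8.61 TPM in knockout and 5.14 and 6.88 TPM in control libraries. Their log2 fold changes were 0.38 (adjusted p = 0.408 by limma) and 0.42 (adjusted p = 0.459). Of the exon bases of Hdac4, 22.4% lie in an antisense gene, and whether reads were counted by strand is not stated in the sources used here. Hdac9 was barely detected, at 0.527 and 0.814 TPM in knockout and 0.151 and 0.441 TPM in control libraries, and was left out of the test. After median-ratio scaling Hdac4, Hdac7 and Hdac9 stayed above and Hdac5 overlapped.

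Hdac6 is the cytoplasmic tubulin deacetylase of class IIb. In TPM as deposited it had the widest gap between lowest knockout and highest control value of all tested members, 0.45 log2 units. It was at 49.9 and 52.2 TPM in knockout libraries, against 34.6 and 36.3 TPM in control libraries, a mean of 51.0 ± 1.60 against 35.5 ± 1.22 TPM (SD, n = 2 each). In TPM as deposited the groups were far apart relative to the spread within either. Median-ratio scaling divides control replicate 1 by 0.813 and control replicate 2 by 1.04, which sets the controls of Hdac6 further apart. Both knockout values stayed above both controls, by a narrower gap. The log2 fold change in TPM as deposited was 0.51 (95% interval 0.13 to 0.90, unadjusted p = 0.018 and adjusted p = 0.185 by limma). It was 0.35 relative to all genes, and between 0.28 with median-ratio scaling and 0.55 without control replicate 2 over the alternatives. Over them its adjusted p ranged from 0.0807 to 0.890. Hdac10, the polyamine deacetylase of the same class, was at 8.68 and 9.91 TPM in knockout and 9.51 and 11.0 TPM in control libraries, with overlapping groups and a log2 fold change of -0.13. Hdac11, the single class IV enzyme, was at 14.7 and 13.6 TPM in knockout and 12.3 and 10.6 TPM in control libraries, with a log2 fold change of 0.29 (adjusted p = 0.522). Relative to all genes Hdac11 was 0.12, and after median-ratio scaling it was 0.070 with overlapping groups. Of its exon bases 17.9% lie in antisense genes.

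Taking the zinc-dependent enzymes as a family, 8 of 10 tested had both knockout values above both controls and 0 had both below, where 36.7% and 14.3% of all genes did. Their median log2 fold change was 0.30, or 0.13 relative to all genes, and 0.078 after median-ratio scaling. Without Hdac1 and Hdac2 the count was 7 of 8 and the median 0.35. After median-ratio scaling 3 of the 10 were above (Hdac4, Hdac6 and Hdac7) and 2 below (Hdac2 and Hdac10), beside 24.1% and 25.5% of all genes.

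**Figure D2:**
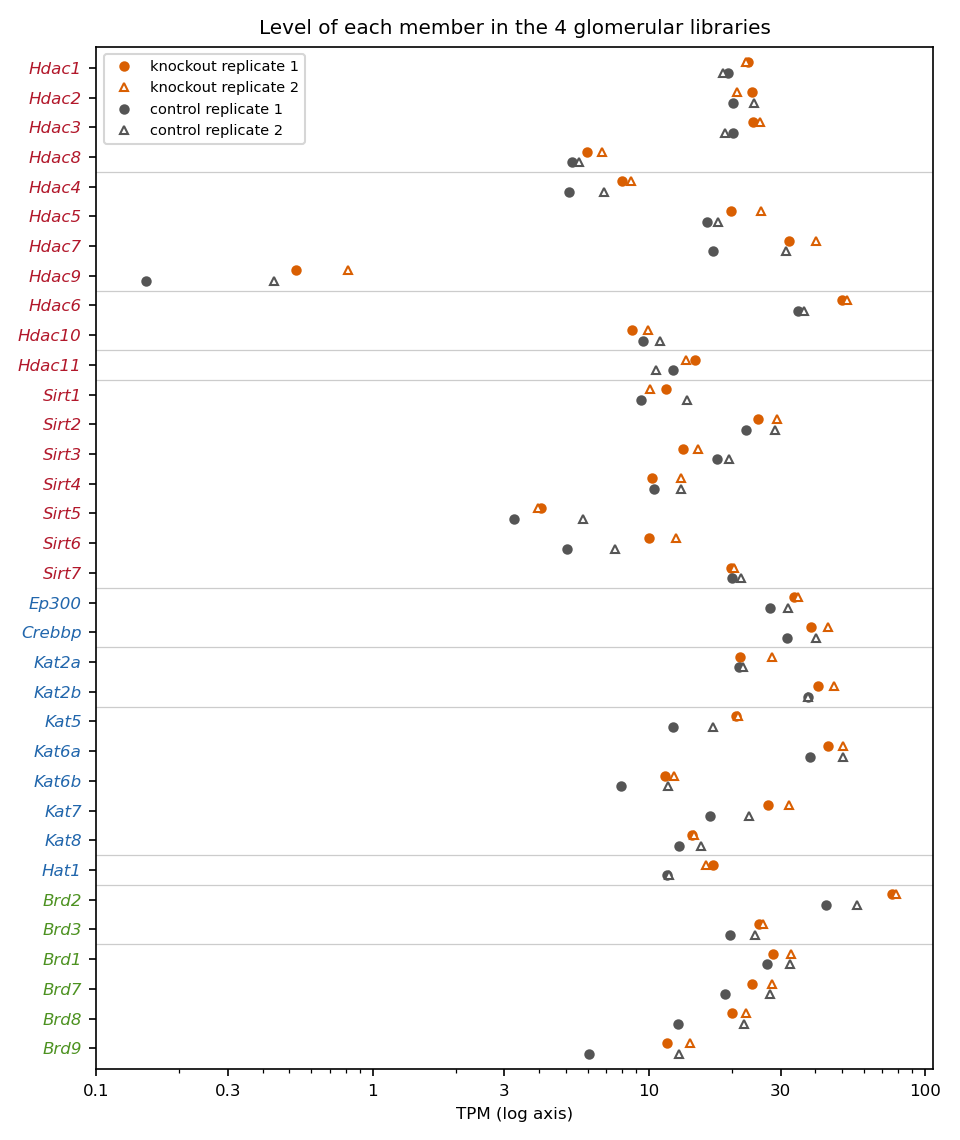
TPM (log axis) of each of the 34 members in each library, knockout libraries in orange and control libraries in grey, with erasers in red type, writers in blue and readers in green, and lines between families. Hdac6 lies at 49.9 and 52.2 TPM in knockout against 34.6 and 36.3 TPM in control libraries, while the Hdac2 values of both groups overlap.

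The sirtuins lay mostly below the median of all genes. Of 7 tested, 1 was above and 1 below, beside 36.7% and 14.3% of all genes, and 5 had overlapping groups. Their median log2 fold change was -0.047, or -0.21 relative to all genes. After median-ratio scaling 1 sirtuin was above and the other 6 were below, beside 24.1% and 25.5% of all genes. This difference between the eraser families was not tested, and without control replicate 2 the median of the sirtuins was 0.18, beside 0.32 over all genes.

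Sirt6, a chromatin-bound deacetylase that acts at telomeres and at genes of glycolysis, had the largest log2 fold change of the 33 members tested. It was at 10.03 and 12.5 TPM in knockout libraries, against 5.04 and 7.52 TPM in control libraries. Both knockout values exceeded both controls, with a log2 fold change of 0.77 (95% interval 0.07 to 1.46, unadjusted p = 0.036 and adjusted p = 0.241 by limma), and 0.60 relative to all genes. It was 0.56 after median-ratio scaling and 0.52 without control replicate 1. Over the alternatives its adjusted p was between 0.0622 and 1.0.

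Sirt3, the main deacetylase of the mitochondrial matrix, was the 1 member with both knockout values below both controls in TPM as deposited. It was at 13.3 and 15.0 TPM in knockout libraries against 17.6 and 19.6 TPM in control libraries. Its log2 fold change was -0.37 (95% interval -0.85 to 0.11, adjusted p = 0.382 by limma), -0.54 relative to all genes and -0.60 after median-ratio scaling. Proximal tubule cells are rich in mitochondria, and the proximal tubule markers given above moved the same way, with 13 of 14 below. Without control replicate 1 the log2 fold change of Sirt3 was -0.44, and the median of the proximal tubule markers was still -0.96. The part of tubular RNA in the Sirt3 value was not tested. Mitochondrially encoded transcripts took 40.8% and 38.7% of TPM in knockout and 40.2% and 46.5% in control libraries. Of its exon bases, 12.7% lie in its antisense neighbours Psmd13 and Ric8a, both of which were above in knockout libraries, the opposite of Sirt3.

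The other mitochondrial sirtuins, Sirt4 and Sirt5, overlapped between groups in TPM as deposited, and after median-ratio scaling both were below, as was Sirt3. Sirt4 was at 10.3 and 13.1 TPM in knockout and 10.4 and 13.1 TPM in control libraries, and Sirt5, a desuccinylase, at 4.08 and 3.96 TPM in knockout and 3.26 and 5.80 TPM in control libraries. Sirt1, the nuclear deacetylase of p53 and of many transcription factors, was at 11.6 and 10.1 TPM in knockout and 9.39 and 13.7 TPM in control libraries. Its 95% interval for the log2 fold change ran from -0.71 to 0.57, so a difference within it in either direction was not excluded. Sirt2, mainly cytoplasmic, was at 24.9 and 29.2 TPM in knockout and 22.5 and 28.5 TPM in control libraries. Sirt7, of the nucleolus, was at 19.9 and 20.3 TPM in knockout and 20.0 and 21.6 TPM in control libraries, with the interval -0.48 to 0.39.

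All 10 writers had a positive log2 fold change in TPM as deposited, with a median of 0.21, or 0.042 relative to all genes. Over all 18612 genes tested, 12399 were positive. Of the writers, 5 had both knockout values above both controls and 0 below, beside 36.7% and 14.3% of all genes. After median-ratio scaling 4 of the 10 log2 fold changes were positive, beside 8732 of the 18612, and the median of the writers was -0.021. The related coactivators Ep300 and Crebbp were among the most abundant members. Ep300 was at 33.5 and 34.7 TPM in knockout and 27.6 and 31.9 TPM in control libraries, and Crebbp at 38.6 and 44.7 TPM in knockout and 31.7 and 40.3 TPM in control libraries. Their log2 fold changes, 0.19 and 0.21, were close to the median of all genes, and after median-ratio scaling they were -0.034 and -0.020.

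Kat2a, the acetyltransferase of the SAGA and ATAC complexes, was at 21.4 and 28.0 TPM in knockout and 21.1 and 21.9 TPM in control libraries. Its paralogue Kat2b was at 41.0 and 46.7 TPM in knockout and 37.8 and 37.7 TPM in control libraries. The log2 fold changes of the pair were 0.18 and 0.21 as deposited and turned slightly negative after median-ratio scaling (-0.049 and -0.023).

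In the MYST family, 2 of 5 members had both knockout values above both controls, a share close to the 36.7% of all genes. Kat7, whose product acts at replication origins, was at 27.0 and 32.2 TPM in knockout libraries against 16.6 and 23.1 TPM in control libraries, with a log2 fold change of 0.57 (95% interval -0.00081 to 1.13, adjusted p = 0.280 by limma). Kat5, the catalytic subunit of the TIP60 complex, was at 20.7 and 21.1 TPM in knockout and 12.2 and 17.1 TPM in control libraries, a log2 fold change of 0.51 (95% interval -0.055 to 1.07, adjusted p = 0.324). Both remained above after median-ratio scaling, with log2 fold changes of 0.34 and 0.28, and those without control replicate 1 were 0.34 and 0.28 too. Of the exon bases of Kat5, 12.1% lie in the antisense gene Rnaseh2c, whose own groups overlapped. Kat6a was at 44.5 and 50.3 TPM in knockout and 38.4 and 50.6 TPM in control libraries, Kat6b at 11.4 and 12.3 TPM in knockout and 7.94 and 11.7 TPM in control libraries, and Kat8, of the MSL and NSL complexes, at 14.3 and 14.6 TPM in knockout and 12.9 and 15.4 TPM in control libraries. These last 3 genes overlapped between groups.

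Hat1, which acetylates newly made histones before they enter chromatin, was at 17.1 and 16.2 TPM in knockout libraries, against 11.6 and 11.9 TPM in control libraries. In TPM as deposited replicates were close in both groups, at 16.6 ± 0.656 and 11.7 ± 0.183 TPM (SD, n = 2 each). The log2 fold change was 0.47 (95% interval -0.0017 to 0.94, unadjusted p = 0.051 and adjusted p = 0.281 by limma). After median-ratio scaling the log2 fold change of Hat1 was 0.25. Its knockout values were then still above, but the lowest knockout and highest control values nearly met. Replicates lay further apart in both groups on that scale. Without control replicate 1 the log2 fold change was 0.45. The 12 proliferation markers were above in knockout libraries too, with a median log2 fold change of 1.05.

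**Figure D3:**
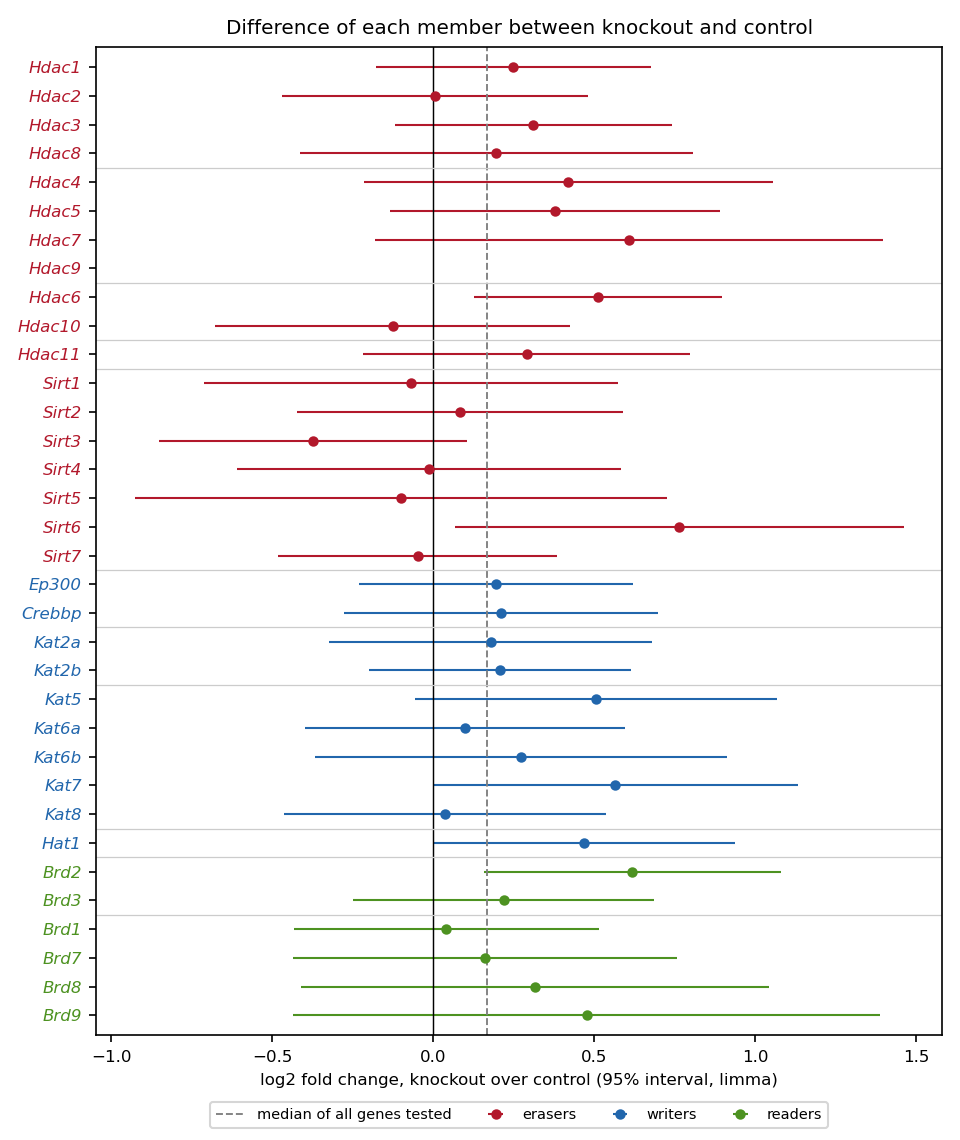
Log2 fold change of knockout over control on the log2(TPM + 1) scale for the 33 tested members, with bars for the 95% interval from limma and a dashed line at the median of all genes tested, 0.17. The intervals of Hdac6, Sirt6 and Brd2 lie above 0, and Sirt3 has the lowest value, -0.37.

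Among the readers, Brd2, a BET protein that binds acetylated chromatin at active genes, was the most abundant of the 34 members. It was at 75.9 and 78.3 TPM in knockout libraries, against 43.9 and 56.6 TPM in control libraries. Both knockout values were above both controls, with a log2 fold change of 0.62 (95% interval 0.16 to 1.08, unadjusted p = 0.018 and adjusted p = 0.183 by limma), 0.45 relative to all genes and 0.39 after median-ratio scaling. Without control replicate 2 the log2 fold change of Brd2 was 0.80, beside a median of 0.32 over all genes. Without control replicate 1 that of Brd2 was 0.44, beside 0.038 over all genes. Each of these fits holds 1 control library. Of its exon bases 9.78% lie in genes of the opposite strand, among them H2-DMa, which serves antigen presentation. H2-DMa was at 22.6 and 24.3 TPM in knockout and 1.73 and 5.75 TPM in control libraries, so the Brd2 level is uncertain by the reads the overlap could hold. Its BET relative Brd3 was at 25.1 and 26.0 TPM in knockout and 19.7 and 24.1 TPM in control libraries, with a log2 fold change of 0.22, or -0.0067 after median-ratio scaling.

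The 4 other bromodomain genes had overlapping groups, and control replicate 1 was the lowest library for each of them. Brd9, of the non-canonical BAF complex, was at 11.6 and 14.0 TPM in knockout libraries against 6.09 and 12.8 TPM in control libraries. Brd8, of the TIP60 complex, was at 19.9 and 22.5 TPM in knockout and 12.7 and 22.1 TPM in control libraries, and Brd7, of the PBAF complex, at 23.6 and 27.9 TPM in knockout and 18.9 and 27.5 TPM in control libraries. Brd1, a scaffold of MYST acetyltransferase complexes, was at 28.2 and 32.8 TPM in knockout and 26.8 and 32.4 TPM in control libraries. Their median log2 fold change was 0.24 with all libraries and -0.074 without control replicate 1, when all 4 values were negative.

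Set against each other, erasers and writers with readers had nearly the same median. The 17 erasers tested had a median log2 fold change of 0.20 and the 16 writers and readers of 0.22, a difference of -0.019. By the role of the gene, 9 of 17 erasers and 7 of 16 writers and readers had both knockout values above both controls, beside 36.7% of all genes. After median-ratio scaling 4 erasers were above and 8 below. Of the writers and readers, 4 were then above and 3 below, beside 24.1% and 25.5% of all genes. The erasers varied more among themselves, with an SD of their log2 fold changes of 0.30 against 0.19, from Sirt3 at -0.37 to Sirt6 at 0.77. Within each library, the median deviation from a gene's mean, erasers minus writers and readers, was -0.018 and -0.042 log2 units in knockout libraries, against 0.12 and 0.030 in control libraries. Both knockout values lay below both controls, with a pooled SD of 0.044 within groups. The difference of the medians of the fold changes itself changed sign with the settings, at 0.0066 after median-ratio scaling and 0.096 without control replicate 1, and no order between the roles is read from it.

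The spread between replicates of a group bears on each of these values. The controls differed from each other by a median of 0.28 log2 units over the members tested, and the knockout libraries by 0.16, beside 0.39 and 0.20 over all genes. Control replicate 2 was above control replicate 1 for 29 of 33 members, and for 72.4% of all genes. For 26 of the 33 the controls lay further apart than the knockout libraries, as they did for 13167 of all 18612 genes. Leaving out either control moved many values. The number of members with a positive log2 fold change was 27 with all libraries, 19 without control replicate 1 and 31 without control replicate 2. Over all 18612 genes it was 12399 with all libraries and 10038 without control replicate 1. Without control replicate 2 the median log2 fold change was 0.29 for the members and 0.32 for all genes.

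**Figure D4:**
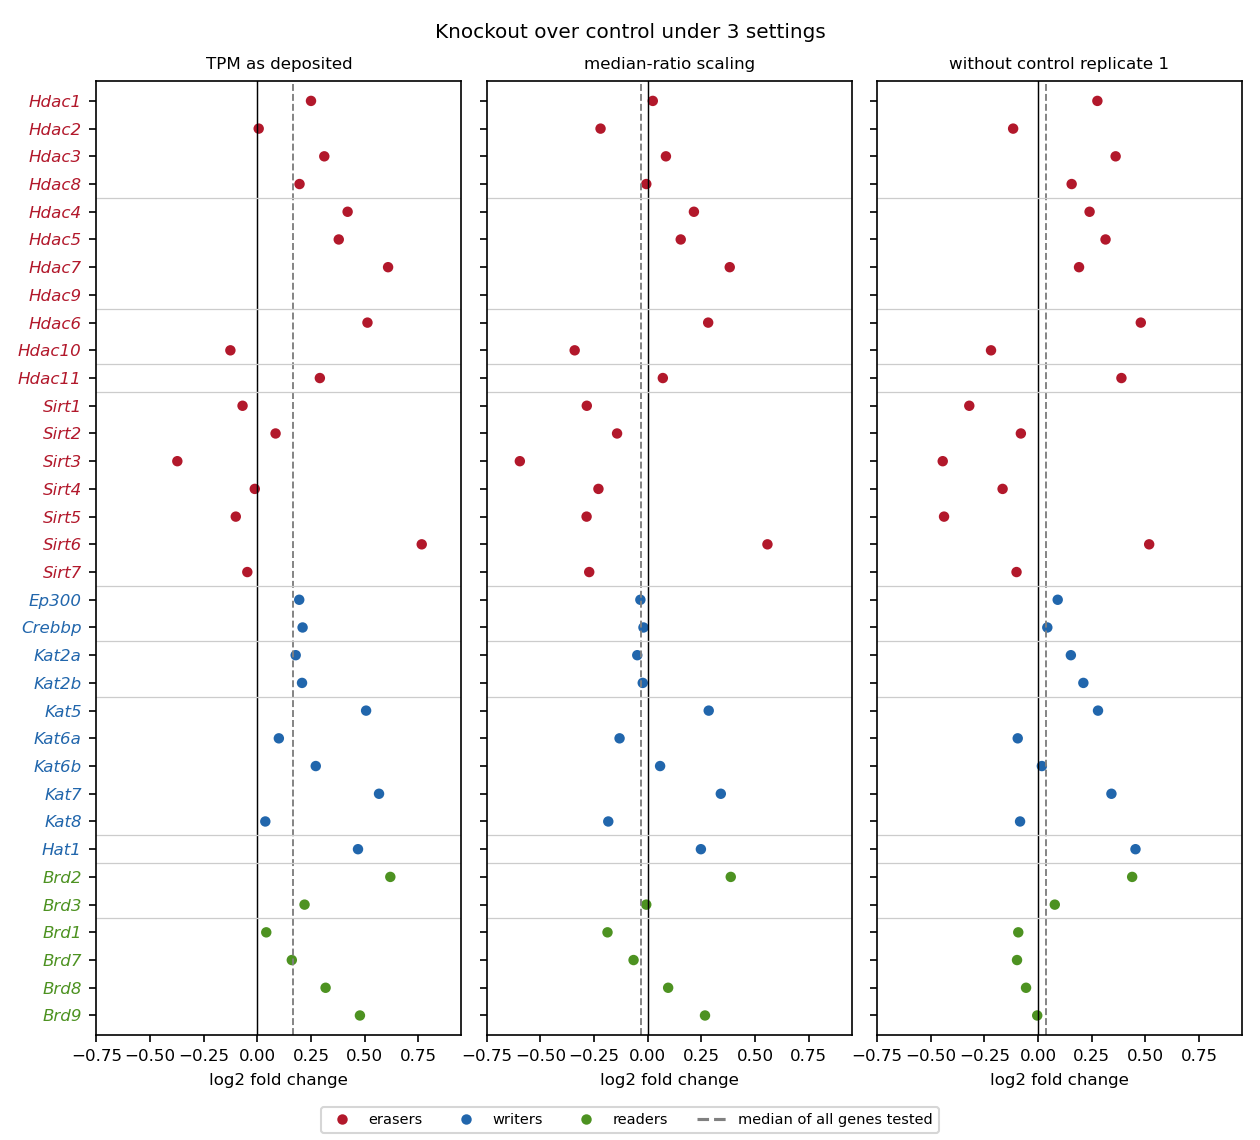
Log2 fold change of knockout over control for the tested members in TPM as deposited, after median-ratio scaling and without control replicate 1, with the median of all genes tested dashed. Hdac1, Hdac3, Hdac4, Hdac5, Hdac6, Hdac7, Hdac11, Sirt6, Kat5, Kat6b, Kat7, Hat1 and Brd2 lie right of 0 in all 3 panels. Brd1, Brd7, Brd8 and Brd9 are among those left of 0 without control replicate 1.

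Among other genes of the pathway, outside the 34, 0 were called by limma. Of 29 further bromodomain and YEATS readers, 17 had both knockout values above both controls and 1 below, beside 36.7% and 14.3% of all genes. Their median log2 fold change was 0.28, or 0.059 after median-ratio scaling, when 12 were above and 4 below. At an unadjusted p under 0.05, 3 of them were higher and 0 lower, a share no larger than the 13.4% of all genes that were higher. The corepressor gene Trim28 was at 58.6 and 56.8 TPM in knockout and 38.6 and 41.8 TPM in control libraries, Yeats4 at 27.8 and 29.7 TPM in knockout and 18.4 and 20.8 TPM in control libraries, and the remodeller gene Smarca4 at 66.3 and 77.8 TPM in knockout and 47.0 and 55.7 TPM in control libraries. Zmynd8 was at 29.8 and 39.2 TPM in knockout and 17.0 and 27.4 TPM in control libraries. All 4 had log2 fold changes between 0.48 and 0.64 and adjusted p from 0.186 to 0.325 by limma. Over the 29 genes the log2 fold changes ran from -1.08 to 0.69, with 26 positive and 3 negative.

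Of 39 subunits of acetyltransferase complexes and other acetyltransferases, 22 were above and 3 below, again beside 36.7% and 14.3% of all genes, with a median log2 fold change of 0.20. After median-ratio scaling 9 were above and 8 below, close to the 24.1% and 25.5% of all genes, and the median was 0.013. At an unadjusted p under 0.05 there were 5 higher, a share close to the 13.4% of all genes, and 0 lower. Jade2, a scaffold of the complex of Kat7, was at 15.6 and 18.2 TPM in knockout and 8.10 and 9.63 TPM in control libraries, and its log2 fold change was 0.86 with an SE of 0.21 (limma's adjusted p = 0.141). Morf4l2, a subunit shared with deacetylase complexes, was at 71.6 and 62.7 TPM in knockout and 42.5 and 44.9 TPM in control libraries, and its relative Morf4l1 at 39.8 and 38.5 TPM in knockout and 25.3 and 30.8 TPM in control libraries. Ing5, also of the Kat7 complex, was at 12.4 and 11.9 TPM in knockout and 7.46 and 8.23 TPM in control libraries.

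Of 9 partners of class IIa deacetylases, 8 were tested, 5 were above and 0 below, beside the same shares of all genes, with a median log2 fold change of 0.29, or 0.096 after median-ratio scaling. At an unadjusted p under 0.05 there were 3 higher and 0 lower, beside 13.4% and 4.46% of all genes. Mef2d, a MEF2 factor, was at 32.7 and 37.0 TPM in knockout and 19.2 and 26.7 TPM in control libraries. Gps2, Tbl1x and Tbl1xr1, subunits of the corepressor complexes that hold Hdac3, had log2 fold changes of 0.51, 0.45 and 0.36 with adjusted p of 0.230, 0.237 and 0.369 by limma.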

How the data were processed

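RNA-seq of poly(A) RNA gave 4 libraries of mouse glomeruli, 2 knockout and 2 control. The authors deposited TPM values (not log2) for 22809 genes, each column summing to 1000000. The build GRCm38.p6 and the tools STAR 2.7.9, DESeq2 1.30.1, fastp 0.20 and featureCounts 2.0.0 are listed, per the submitters' processing notes, without their roles. The sources used here do not give the annotation, the strandedness or any filter. Symbols were found for 22762 genes. TPM times exon length in GENCODE M21 gave whole reads, within a relative tolerance of 1e-06, for 22176 genes (97.2%), all members but Hdac9, Kat6a and Kat6b. limma 3.58.1 in R 4.3.3 (eBayes with trend) was fitted to log2(TPM + 1) over the 18612 genes with a mean of at least 1 TPM, with no covariate, and adjusted by Benjamini-Hochberg over all of them at 0.05. An exact test of 2 against 2 cannot go below 0.333. The fit was tested on simulated reads with changes set larger than those of any member. That test does not cover changes as small as theirs. Python 3.11.15 with pandas 2.3.3 handled the tables. Members, lists and tests were chosen with earlier results of these data known. The genes named are all 34 members, up to 4 of each further list with the smallest p, markers for the tissue check, exon neighbours, and Gm22513 as the called gene. Nothing says that libraries of a group came from separate litters, so p-values measure the spread between these pools. Exon overlaps and coordinates are from GENCODE M21 on GRCm38.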

Additional observations from a re-analysis of the deposited data

How the results depend on the processing

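Results were recomputed under 14 alternatives: median-ratio scaling, quantile normalization, a pseudocount of 0.1 or of 5, no filter or one at a mean of 5 TPM, TPM without mitochondrially encoded genes, limma without trend, the replicate block, voom on the recovered reads, and each library left out in turn. Of the 33 members, 15 kept their direction under all of them (Hdac1, Hdac3, Hdac4, Hdac5, Hdac6, Hdac7, Hdac10, Hdac11, Sirt3, Sirt6, Kat5, Kat6b, Kat7, Hat1 and Brd2, with no voom value for Kat6b) and 18 changed it under at least 1. With median-ratio scaling the log2 fold change was -0.22 for Hdac2, -0.0066 for Hdac8, -0.14 for Sirt2, -0.034 for Ep300, -0.020 for Crebbp, -0.049 for Kat2a, -0.023 for Kat2b, -0.13 for Kat6a, -0.18 for Kat8, -0.0067 for Brd3, -0.19 for Brd1 and -0.066 for Brd7. With quantile normalization it was -0.17 for Hdac2, -0.029 for Hdac8, -0.073 for Sirt2, -0.010 for Kat6a, -0.17 for Kat8, -0.11 for Brd1 and -0.012 for Brd7. Without mitochondrially encoded genes it was -0.083 for Hdac2, -0.0036 for Sirt2, -0.050 for Kat8 and -0.048 for Brd1, and with voom -0.043 for Hdac2, -0.0031 for Kat8 and -0.0091 for Brd1. Leaving out each library in turn, it ranged from -0.12 to 0.13 for Hdac2, -0.32 to 0.18 for Sirt1, -0.080 to 0.25 for Sirt2, -0.17 to 0.15 for Sirt4, -0.44 to 0.24 for Sirt5, -0.10 to 0.0063 for Sirt7, -0.0059 to 0.36 for Kat2a, -0.095 to 0.29 for Kat6a, -0.084 to 0.16 for Kat8, -0.092 to 0.17 for Brd1, -0.098 to 0.42 for Brd7, -0.056 to 0.69 for Brd8 and -0.0037 to 0.96 for Brd9. The median of erasers minus that of writers and readers was -0.066 with a pseudocount of 5, -0.10 with quantile normalization, and -0.16 to 0.096 over the libraries left out.

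Called members numbered 0 under all alternatives but 1: without control replicate 2 there were 2, Brd2 and Hdac7, when 1558 genes were called higher and 522 lower over all genes. Leaving out 1 library gave 0 to 2 called members, 0 to 1558 genes higher and 0 to 522 lower. The 1 gene called lower was lost (0 genes) with quantile normalization, limma without trend, voom and without control replicate 1. The cause of these changes was not tested. The labels number the replicates 1 and 2 in both groups without saying that a number marks a shared experiment. The differences between replicates correlated over 18612 genes with r = 0.14. Replicate 2 was above replicate 1 in both groups for all 12 endothelial markers, and in each group for 19 of 22 podocyte markers. For the 14 proximal tubule markers this held for 4 in control and 12 in knockout libraries, and over all genes for 13475 and 11950. What lies behind these differences was not tested. The fit with the replicate block called 0 genes higher, 1 lower and 0 members. With 2 libraries a group, the 95% interval ran from 0.13 to 0.90 for Hdac6, the narrowest of the tested members, and from -0.43 to 1.39 for Brd9, the widest.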
